A study of Rattus norvegicus with 4 samples.

Results

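Transcript levels of the LIF receptor and JAK-STAT genes were examined in rat embryonic stem cells (ESCs) with and without *Thop1*. The group comprised 9 genes, *Lifr*, *Il6st*, *Jak1*, *Jak2*, *Jak3*, *Tyk2*, *Stat3*, *Socs2* and *Socs3*, found by their gene symbols among the 34773 genes of the deposited table. All 9 passed the filter on low counts that left 15028 genes for testing, with between 45 and 5547 counts in a library. Of the 9 genes, 2 rose in the *Thop1*-KO subclones (*Socs3*, 5.43-fold, and *Il6st*, 5.04-fold) and 1 fell (*Jak3*, 2.23-fold lower). Of all genes tested, 13.8% were called, 8.62% higher and 5.17% lower. The other 6 did not pass the test. In the 1 control library *Jak3* was the kinase with the highest level per length, whereas *Tyk2* was in each of the 3 subclones.

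Leukaemia inhibitory factor (LIF) is the cytokine that sustains self-renewal of rodent ESCs in culture. It binds a receptor made of LIFR and gp130, the product of *Il6st*, which is shared by the receptors of the whole interleukin-6 family. Kinases of the Janus family (JAKs) bound to the inner side of the receptor phosphorylate the transcription factor STAT3, which then enters the nucleus. SOCS proteins are made in response and inhibit the receptor and its kinases, and *Socs3* is a classic STAT3 target that acts on gp130.

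Poly(A) RNA was sequenced from 1 library labelled WT, which is the DA-5-3GFP line of the study, and from 1 library each of 3 *Thop1*-KO subclones (#1, #2 and #3). DA-5-3GFP carries a GFP reporter in *Rex1*, and the subclones, picked as single colonies after Cas9 editing and puromycin selection, carry it too. The methods of the study describe growth of rat ESCs on feeder cells in medium with LIF, PD0325901 (a MEK inhibitor) and CHIR99021 (a GSK3 inhibitor), with no condition of their own for the RNA-seq cultures. The paper calls DA-5-3 diploid, whereas the text deposited with the data calls the cells haploid, and no age, passage or batch is given. The genotypes were compared with edgeR (quasi-likelihood F test), p-values were adjusted by Benjamini-Hochberg over all genes tested, and genes with an adjusted p under 0.05 were called. With 1 control library, the spread is that between the subclones, so genotype, culture, clone picking and library preparation cannot be told apart. In these bulk libraries fewer cells of a type and less RNA per cell cannot be told apart either. With groups of 1 and 3, the smallest p an exact permutation test allows is 0.25.

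The libraries held 15405499 to 17936544 counts. *Thop1*, the targeted gene, was at 5500 counts in the control but 1843, 1635 and 2680 in #1, #2 and #3 (edgeR log2 fold change -1.66, adjusted p = 0.0187). Of 7 ESC markers measured, *Pou5f1*, *Nanog*, *Sox2* and *Tdgf1* did not pass the test, and *Esrrb* and *Fgf4* were called higher and *Dppa5* lower in the subclones. The summed level of the 7 was 4617 to 5432 FPKM in the subclones and 5352 in the control, most of it *Pou5f1* (3347 in the control). *Esrrb* was at 252, 217 and 246 FPKM in #1, #2 and #3 against 12.1 in the control. *Fgf4* was at 191, 153 and 187 against 17.1, and *Dppa5* at 519, 592 and 452 against 1054. FPKM is the count per kilobase of exon scaled by a factor for each library, and CPM is the count relative to the TMM-normalized library size. Among 7 fibroblast markers, which feeder cells could contribute, *Dcn*, *Lum* and *Thy1* had no count in any library, and the summed level was 55.6, 112 and 70.6 FPKM in #1, #2 and #3 against 33.9 in the control, most of it *Col1a1*. All 4 fibroblast markers tested had a log2 fold change above 0, 0 were called by edgeR with 2 at an unadjusted p under 0.05, and DESeq2 called 1, *Col1a1*. Primitive endoderm markers summed to 117 to 166 FPKM against 80.9, most of it *Lama1*. Of the 6 tested 0 were called by edgeR, or by DESeq2 among the 5 with an adjusted p, with 4 at an unadjusted p under 0.05. Of all genes tested, 34.0% were at an unadjusted p under 0.05. DESeq2 called 21.3% of all genes to which it gave an adjusted p.

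**Figure D1:**
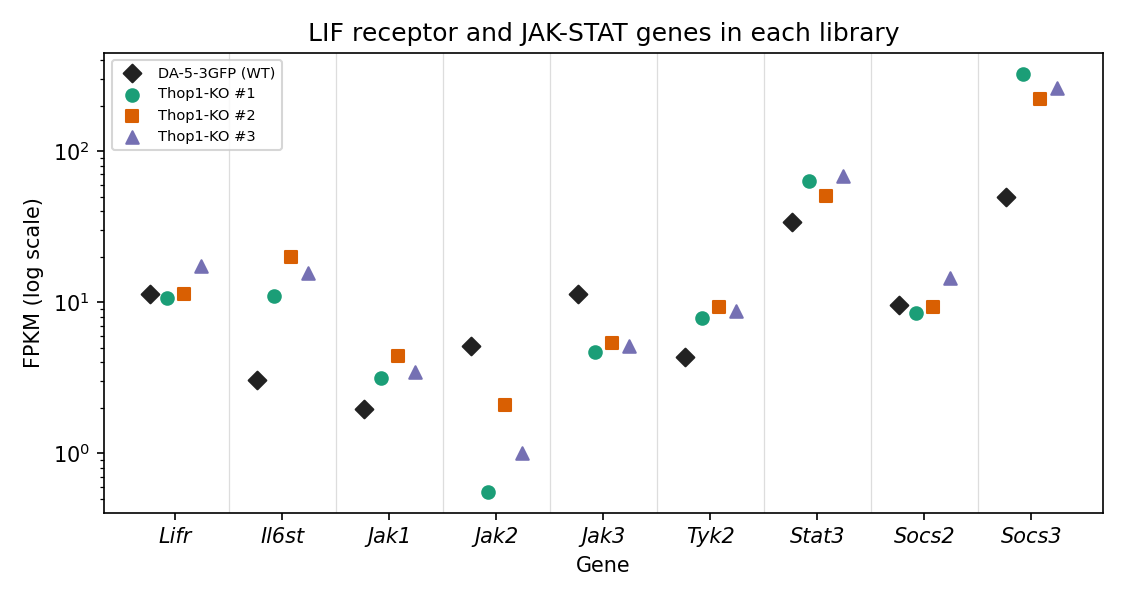
FPKM (log axis) of the 9 genes, 1 point for each library: the control (black diamonds) and subclones #1, #2 and #3. The control lies below the 3 subclones for *Il6st*, *Jak1*, *Tyk2*, *Stat3* and *Socs3*, above them for *Jak2* and *Jak3*, and inside their range for *Lifr* and *Socs2*.

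The control lay outside the range of the 3 subclones in CPM for 7 of the 9 genes, below it for 5 and above it for 2. Over all genes tested it lay outside for 75.7%, so the share among the 9 genes was close to that background. By the test, 3 of the 9 were called, against 13.8% of all genes tested. At an unadjusted p under 0.05 there were 7 of the 9, against 34.0% of all genes. DESeq2's Wald test, the tool the study names, called 5 of the 9, adding *Jak2* and *Tyk2*, against 21.3% of the genes to which it gave an adjusted p. The 9 genes had a median log2 fold change of 0.83, and all genes tested 0.06. The median size of the change regardless of direction was 1.00 against 0.79.

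Of the receptor genes *Il6st* rose, whereas *Lifr* did not pass the test; the difference between them was not tested. *Il6st* (ENSRNOG00000013963), encoding gp130, occupies positions 44289393 to 44314944 of chromosome 2 (plus strand), by the coordinates deposited, whose genome build is not given in the sources used here. The control had 144 *Il6st* counts, against 573, 1111 and 889 in #1, #2 and #3. This is 10.9, 19.9 and 15.5 FPKM against 3.07. Each subclone was thus above the control, and the subclones spread over a 1.84-fold range in CPM. The log2 fold change of *Il6st* was 2.33 (SE 0.44, edgeR adjusted p = 0.0233). The call was lost without subclone #3 (edgeR log2 fold change 2.32, adjusted p = 0.0638), and held in the other alternatives. The order of the subclones for *Il6st*, with #2 highest, then #3, then #1, was also that of the summed fibroblast markers, and their part in the *Il6st* difference was not tested.

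*Lifr* (ENSRNOG00000011696), the LIF-binding chain, lies on the same chromosome and strand from 56426367 to 56489415. Its counts were 974, 1099 and 1732, against 920, or 10.7, 11.4 and 17.4 FPKM against 11.3. The control lay between subclones #1 and #2. The log2 fold change of *Lifr* was 0.22 (SE 0.35, edgeR adjusted p = 0.683). Its sign turned to -0.17 after correction for gene length and to -0.04 without subclone #3, the library with the most *Lifr*. By FPKM the ratio of *Lifr* to *Il6st* was 3.69 in the control and 0.982, 0.571 and 1.13 in the subclones. The mean in the subclones was 0.893 ± 0.287 (SD, n = 3), and the control was above their range. This ratio rests on the lengths of the deposited gene models. The FPKM of *Il6st* used an exon length of 3112 bases. Its deposited gene spans 25552 bases, and RefSeq's gene in GRCr8 spans 40630. Gene spans include introns, so these spans do not give the size of any error in exon length. In the order of levels of the 9 genes, *Il6st* stood eighth in the control and the third or the fourth in the subclones.

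RefSeq promoter windows of 300 bases, from 250 before to 50 after the annotated gene start in build GRCr8, were found for 5 of the 9 genes, *Lifr*, *Il6st*, *Jak2*, *Stat3* and *Socs3*. They were searched for the core of the STAT-binding element, TTCNNNGAA, and for its shorter form TTCNNGAA, both of which read the same way on either strand and cannot match at the same place. The longer form was in none of the 5 windows and in 8.87% of all 33469 windows. The shorter form was in 1 of the 5, that of *Il6st*, 86 bases before the annotated start, and in 8.77% of all windows. The stretch around this match is shown because *Il6st* is the called gene with a match, with the matched letters in capitals (GRCr8, chr2:45810135-45810164, plus strand).
Il6st: tatttaccaccTTCCAGAAaatagctacag
A match of letters does not show binding, and the windows follow RefSeq gene starts, which need not be those used in ESCs.

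**Figure D2:**
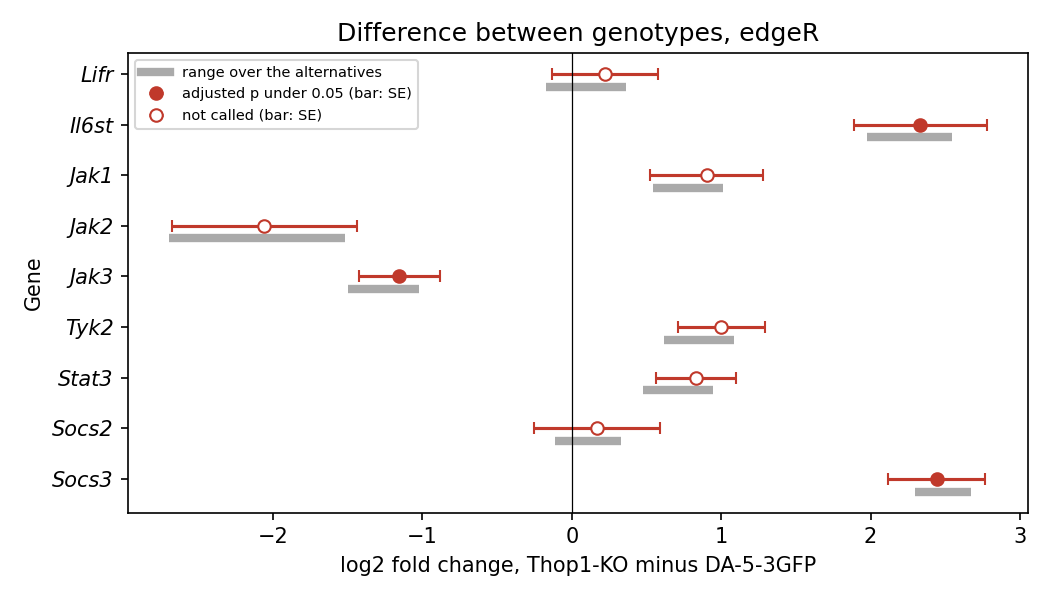
edgeR log2 fold change of the 9 genes between *Thop1*-KO (3 libraries) and DA-5-3GFP (1 library), with the standard error as a thin bar and the range over 12 alternative analyses as a grey bar. Filled points, *Il6st*, *Jak3* and *Socs3*, have an adjusted p under 0.05, and the grey bars of *Lifr* and *Socs2* cross 0.

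Of the 4 JAK kinases *Jak3* fell, and the differences of *Jak1*, *Jak2* and *Tyk2* did not pass the test. *Jak3* (ENSRNOG00000018669; chromosome 16, plus strand, 20109200 to 20120668), which in lymphocytes works with the common gamma chain of interleukin receptors, fell from 672 counts in the control to 311, 380 and 375. Its level was 4.65, 5.36 and 5.14 FPKM against 11.3. The subclones lay close together, at 5.05 ± 0.363 FPKM (SD, n = 3), and all were below the control. The log2 fold change of *Jak3* was -1.15 (SE 0.27, edgeR adjusted p = 0.0383). *Jak3* kept its direction in all 12 alternatives and its call in 7. The call was lost without subclone #1 (edgeR adjusted p = 0.0664) and without #3 (0.174). A second gene, AABR07024869.1 on the opposite strand, overlaps *Jak3* in the annotation and had no count in any library. The library protocol does not mark strand, so the lack of counts does not show that this gene was silent. *Insl3*, 684 bases downstream, had at most 18. *Il2rg*, which encodes the common gamma chain, was at 2, 2 and 12 counts, against 10, and of 4 blood cell markers *Ptprc*, *Cd3e* and *Itgam* had none in any library while *Spi1* had at most 16.

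*Jak2* (ENSRNOG00000059968; chromosome 1, plus strand, 247398598 to 247458509), the kinase of the growth hormone and erythropoietin receptors among others, was counted 45, 180 and 88 times in the subclones, against 367. In CPM this was 2.68 in #1 with an exact 95% Poisson interval of 1.96 to 3.59, 10.2 in #2 (8.75 to 11.8), 4.90 in #3 (3.93 to 6.03) and 24.7 in the control (22.2 to 27.4). No 2 of these counting intervals overlapped, and the subclones differed 3.79-fold among themselves, a wider spread on the log2 scale than that of 96.1% of the genes tested. The control was above all 3 subclones. The log2 fold change of *Jak2* was -2.06 (SE 0.62), and its edgeR adjusted p of 0.0707 did not pass the threshold. *Jak2* passed under DESeq2 (adjusted p = 0.00877), after correction for gene length (edgeR adjusted p = 0.0404), and in edgeR without subclone #1 (adjusted p = 0.0462) or without #2, the subclone nearest to the control (0.000193).

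*Tyk2* (ENSRNOG00000032948; chromosome 8, minus strand, 22124560 to 22150005), which can also associate with gp130, was counted 666, 847 and 813 times, against 329. This gave 7.80, 9.36 and 8.72 FPKM against 4.32, with the control below every subclone. Its log2 fold change was 1.00 (SE 0.29, edgeR adjusted p = 0.0657), and it passed under DESeq2 (adjusted p = 0.0328) and in edgeR without subclone #2 (adjusted p = 0.0183). *Jak1* (ENSRNOG00000011157; chromosome 5, minus strand, 119982943 to 120083904), the main kinase of gp130 receptors in many cell types, had the lowest level of the 9 genes in the control. Its 229, 339 and 271 counts in the subclones stood against 127. In FPKM, *Jak1* was at 3.16, 4.41 and 3.43 against 1.96. The control was again the lowest library, but the edgeR adjusted p was 0.146 (log2 fold change 0.90, SE 0.38), and no alternative called *Jak1*. An annotated miRNA gene and a U6 snRNA gene that overlap *Jak1* had no counts.

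**Figure D3:**
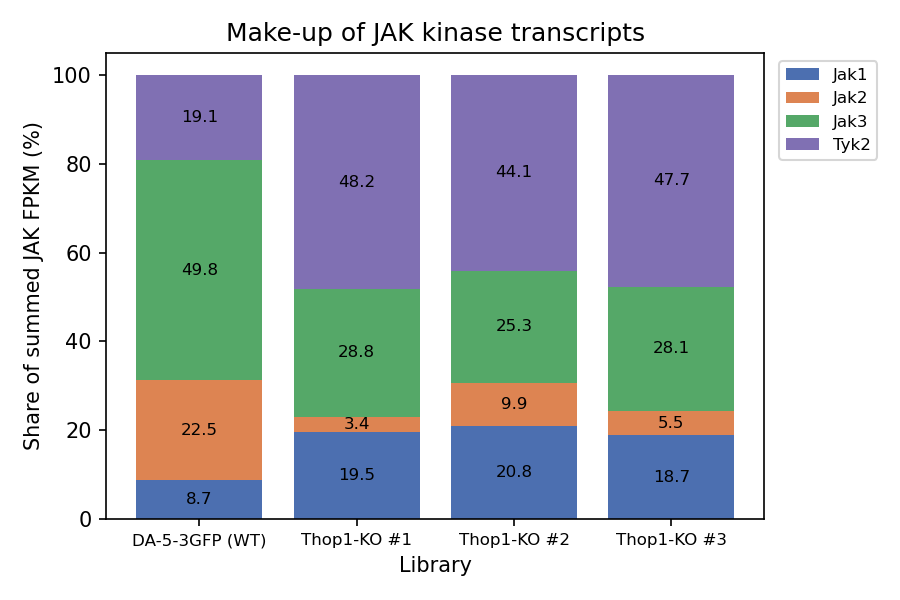
Share of *Jak1*, *Jak2*, *Jak3* and *Tyk2* in the summed FPKM of the 4 kinase genes, in percent, 1 stacked bar for each library. *Jak3* takes 49.8% in DA-5-3GFP and 25.3% to 28.8% in the subclones, and *Tyk2* 19.1% and 44.1% to 48.2%.

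Summed over the 4 kinases, the level was 22.6 FPKM in the control and 16.2, 21.2 and 18.3 in the subclones, a mean of 18.6 ± 2.54 (SD, n = 3). Within that sum *Jak3* made up 49.8% in the control and 27.4% ± 1.87 (SD, n = 3) in the subclones. For *Jak2* the shares were 22.5% and 6.26% ± 3.30. For *Tyk2* they were 19.1% and 46.7% ± 2.27, and for *Jak1* 8.68% and 19.7% ± 1.03. For each kinase the control lay outside the range of the subclones. As shares of raw counts, where gene length is not taken out, *Jak3* stood at 44.9% in the control (exact 95% Clopper-Pearson interval 42.4% to 47.5%). These intervals cover counting error only. No test was applied to the shares, which are made from the same values as the comparisons of the single genes.

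*Stat3* (ENSRNOG00000019742; chromosome 10, minus strand, 88790408 to 88842233), the transcription factor through which LIF acts in ESCs, was represented by 2271 counts in the control, against 4705, 4021 and 5547. Its level was 62.9, 50.7 and 67.9 FPKM against 34.1, second of the 9 genes in every library. The control was below all 3 subclones. The log2 fold change of *Stat3* was 0.83 (SE 0.27, edgeR adjusted p = 0.0829). Among the alternatives *Stat3* passed only without subclone #2 (edgeR adjusted p = 0.00334), where 37.9% of all genes were called, and DESeq2 gave an adjusted p of 0.0560. *Stat5a* ends 1351 bases away on the opposite strand and had 8 to 73 counts in a library.

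*Socs3* (ENSRNOG00000002946; chromosome 10, minus strand, 106975178 to 106976040) had the highest level per length of the 9 genes in every library. Its counts were 4725, 3421 and 4137, against 643, or 324, 221 and 260.0 FPKM against 49.5. All 3 subclones were far above the control, and in the mean of the subclones *Socs3* exceeded 97.5% of the genes tested by FPKM, against 86.9% in the control. Its log2 fold change was 2.44 (SE 0.33, edgeR adjusted p = 0.00970). *Socs3* was called in all 12 alternatives, with log2 fold changes between 2.30 and 2.67. The deposited gene model of *Socs3* is a single stretch of 863 bases, on which its level per length rests. RefSeq's gene in GRCr8 spans 3397 bases. That span can include introns, and the exon lengths of the 2 models were not compared. In raw counts *Stat3* was above *Socs3* in the control (2271), #2 (4021) and #3 (5547), and just below it in #1 (4705). The subclone order of *Socs3*, with #1 highest and #2 lowest, was the reverse of that of the fibroblast markers, and their part in the *Socs3* difference was not tested.

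*Socs2* (ENSRNOG00000008965; chromosome 7, minus strand, 36495480 to 36499784), best known as the inhibitor of growth hormone receptor signalling, was at 8.42, 9.32 and 14.5 FPKM in the subclones and 9.58 in the control. The control lay between subclones #2 and #3. Its log2 fold change was 0.17 (SE 0.42, edgeR adjusted p = 0.801) and turned to -0.12 without subclone #3, the library with the most *Socs2* counts (379, against 202 and 237 in #1 and #2 and 205 in the control). The ratio of *Socs3* to *Stat3* by FPKM was 1.45 in the control and 5.15, 4.37 and 3.83 in the subclones. *Socs3* exceeded *Socs2* 5.16-fold in the control and 18.0-fold to 38.5-fold in the subclones. In both ratios the control was below every subclone. Both rest on the deposited gene models. The FPKM of *Socs2* used an exon length of 1421 bases. Its deposited gene spans 4305 bases, and RefSeq's gene in GRCr8 spans 41529. Gene spans include introns, so these spans do not give the size of any error in exon length.

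The order of levels per length rests on the lengths of the deposited gene models. In the control it was *Socs3*, *Stat3*, *Lifr*, *Jak3*, *Socs2*, *Jak2*, *Tyk2*, *Il6st* and *Jak1*. *Lifr* and *Jak3* were next to each other there, at 11.34 and 11.27 FPKM, and with 1 library their order has no replicate check. In the mean of the subclones the order was *Socs3*, *Stat3*, *Il6st*, *Lifr*, *Socs2*, *Tyk2*, *Jak3*, *Jak1* and *Jak2*. The means of *Il6st* (15.4 ± 4.52 FPKM, SD, n = 3), *Lifr* (13.2 ± 3.70) and *Socs2* (10.7 ± 3.26) differed by less than 1 SD of either neighbour, while *Jak1* (3.67 ± 0.660) and *Jak2* (1.22 ± 0.795) did not overlap.

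The rest of the pathway was described with 6 lists of other genes, chosen with earlier results of these data known. Of the listed genes 56 were in the table and 43 had enough counts to be tested. Of these 43, 4 were called higher and 1 lower in *Thop1*-KO, 11.6%, against 13.8% of all genes. At an unadjusted p under 0.05 there were 21 of the 43, against 34.0% of all genes. Among 8 ligands of the interleukin-6 family 4 were tested and 0 were called by edgeR, with 2 at an unadjusted p under 0.05. DESeq2 gave an adjusted p to 2 of them and called 0. The median log2 fold change of these 4 was 0.67, or 0.27 with *Clcf1*, which had no count in the control, set at a bound of 3 counts there. The gene for LIF, *Lif*, gave 10 control counts and 74, 48 and 40 in #1, #2 and #3 (edgeR log2 fold change 2.20, SE 0.72, adjusted p = 0.0848), and *Ctf1*, encoding cardiotrophin, had 12, 10 and 9 against 16. The 4 ligands not tested had at most 6 counts in a library.

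Of 5 other receptor genes of the family 3 were tested and 0 were called by edgeR. At an unadjusted p under 0.05 there were 0, against 34.0% of all genes. DESeq2 called 1 of the 3, *Il11ra1*, against 21.3% of all genes. All 3 had a log2 fold change above 0, with a median of 1.44. *Il11ra1*, encoding a receptor chain for interleukin-11, had 732, 235 and 416 counts, against 146 (log2 fold change 1.44, SE 0.67), and *Il27ra* had 42, 42 and 45, against 21 (0.80, SE 0.56). *Osmr* and *Il6r*, the receptor chains for oncostatin M and interleukin-6, had at most 1 count in any library, a depth at which no difference was detectable.

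Of 4 other STAT genes 0 were called by edgeR, with 3 at an unadjusted p under 0.05, against 34.0% of all genes. DESeq2 called 1, *Stat5a*, of the 3 to which it gave an adjusted p, against 21.3% of all genes. All 4 STAT genes had a log2 fold change above 0, with a median of 3.43, or 2.11 with *Stat6*, which had no count in the control, set at the same bound. *Stat5b* had 1 count in the control, against 13, 48 and 15 in #1, #2 and #3, and *Stat5a* had 8 in the control. Both medians thus rest on genes near the floor. *Stat2* had 712 counts in the control, which lay inside the range of the subclones. The 2 most abundant, *Stat2* and *Stat5a*, had log2 fold changes of 0.34 (SE 0.43) and 2.58 (SE 0.79).

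Among 14 other inhibitors of the pathway, *Socs1* fell and *Socs7* rose, and 12 were not called, a share called near the 13.8% of all genes. At an unadjusted p under 0.05 there were 9 of the 14, against 34.0% of all genes. DESeq2 called 5, against 21.3% of all genes, adding *Pias2*, *Ptpn1* and *Socs5*. The median log2 fold change was 0.12, with 7 genes on either side of 0. *Socs1*, which inhibits JAK kinases directly, went from 72.0 CPM in the control to 25.5, 32.0 and 19.4 (edgeR log2 fold change -1.49, SE 0.32, adjusted p = 0.0307). *Socs7* was at 26.2, 22.2 and 28.0 CPM against 7.33 (edgeR log2 fold change 1.79, SE 0.35, adjusted p = 0.0258). *Socs1*, *Socs3* and *Socs7* thus did not change in 1 direction, and the control was outside the range of the subclones for each. *Socs1* and *Socs7* lost their calls without subclone #3 (edgeR adjusted p = 0.120 and 0.121).

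**Figure D4:**
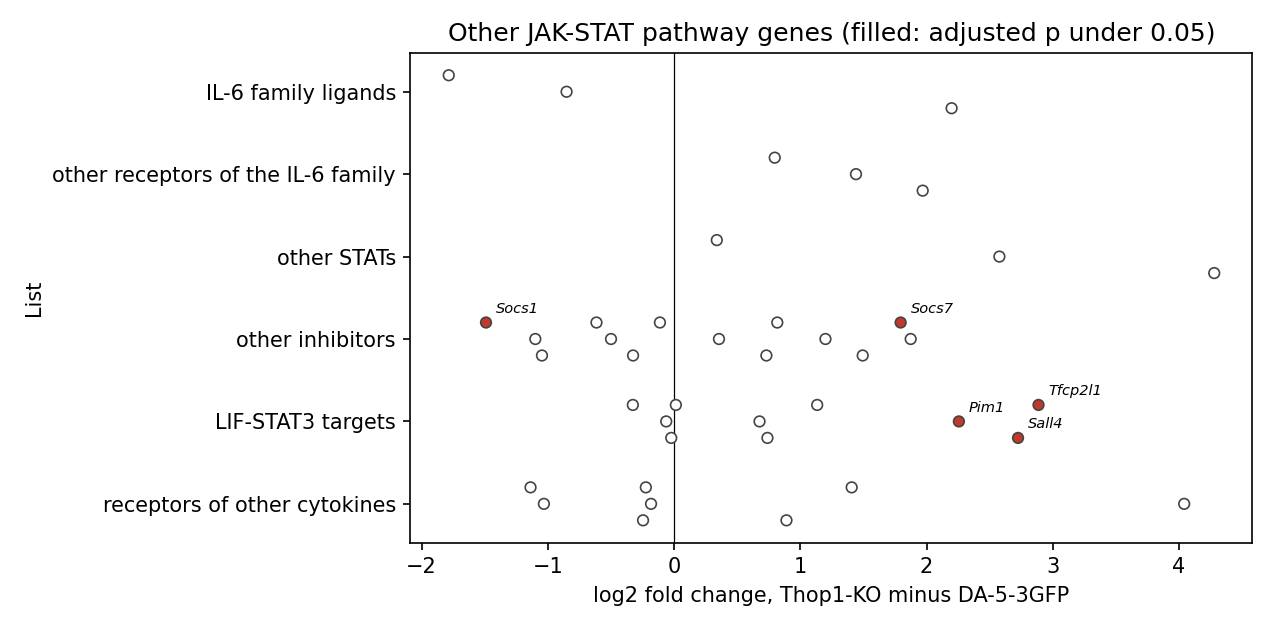
edgeR log2 fold change between *Thop1*-KO and DA-5-3GFP of the tested genes in 6 lists of other pathway genes, 1 point for each gene, filled and named where the adjusted p is under 0.05. *Clcf1* and *Stat6*, with no count in the control, are left out, and the 5 called genes are split into 4 to the right and 1 to the left of 0.

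Of 10 genes known as LIF and STAT3 targets in ESCs, 3 rose and 7 were not called, against 8.62% of all genes called higher. The same 3 were those at an unadjusted p under 0.05 and those called by DESeq2, against 34.0% and 21.3% of all genes. The median log2 fold change of the 10 was 0.71, against 0.06 for all genes tested. The list was chosen with earlier results of these data known, so its comparison with all genes is a description only. The 3 were *Tfcp2l1* (2.89, edgeR adjusted p = 0.00678), a transcription factor of naive ESCs, *Sall4* (2.72, edgeR adjusted p = 0.0102), a zinc finger factor of the pluripotency network, and *Pim1* (2.26, edgeR adjusted p = 0.0211), a serine/threonine kinase. *Pim1* lost its call without subclone #3 (log2 fold change 2.15, edgeR adjusted p = 0.0545). *Pim1* went from 31.2 CPM to 177, 101 and 170, and *Sall4* from 23.6 to 185, 117 and 166. *Klf4*, another LIF target, was at 40.9, 70.0 and 42.6 CPM against 64.2, with the control inside the range of the subclones (log2 fold change -0.33, SE 0.36). Of 15 receptor genes for other cytokines that signal through JAKs, 8 were tested. Of these 8, 0 were called by edgeR, or by DESeq2 among the 7 with an adjusted p. At an unadjusted p under 0.05 there were 4, against 34.0% of all genes. The median log2 fold change of the 8 was -0.20. The most abundant, *Ifngr2*, was at 46.6, 49.3 and 43.7 CPM against 25.1 (edgeR adjusted p = 0.0776), and *Ifnar1* at 22.2, 34.2 and 24.3 against 31.4.

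For the 3 called genes, the other protein coding genes with the most similar profile over the 4 libraries were sought by the root mean square distance of log2 CPM after centring each gene. Nearest to *Socs3* was *Zcchc14*, at a distance of 0.02, followed by *Pknox2* and *Myo1c*. Nearest to *Jak3* was *Ezh2*, the histone methyltransferase of Polycomb repressive complex 2, at 0.01, with 18.5, 21.5 and 21.2 CPM in the subclones and 46.2 in the control. *Trmt10c* and *Scoc* came next. Nearest to *Il6st* were LOC100911932, LOC100361087 and *Eml1*, at 0.06 to 0.07. In the control LOC100911932 and LOC100361087 were at 0.0673 and 0.135 CPM, and *Pknox2* at 0. These values lie below the 0.5 CPM added before logs, so the distances of these genes depend on that addition. With 4 libraries and 12760 candidate genes, close profiles are a description only.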

How the data were processed

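RNA-seq libraries of 1 culture labelled WT and of 3 *Thop1*-KO subclones were analysed; groups and subclone numbers follow the sample titles. The authors deposited raw counts per gene and FPKM values. Reads had been cleaned with the FASTX toolkit, and the submitters' processing notes list HISAT2 2.0.5 and featureCounts 1.5.0-p3; genome build and strand setting are not given in the sources used here. The library protocol does not mark strand, so a gene and an antisense partner cannot be separated. The deposited FPKM were found to be counts over gene length, scaled with the size factors of DESeq2.

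Genotypes were compared on the deposited counts in R 4.3.3 by edgeR 4.0.16 (filterByExpr, minimum count 10; TMM; glmQLFit and glmQLFTest). Standard errors are the log2 fold change over the square root of the F statistic. The fit was tested on simulated data before use. With 200 genes changed 4-fold, it called 102 of them and 10 unchanged genes. With 200 changed 8-fold, it called 148 of them and 20 unchanged genes, and with 0 changed it called 0. A gene not called in the real data can thus still differ by several fold. Alternatives were other scalings, filters and call rules, DESeq2 1.42.0, a loess correction for gene length (span 0.3), limma 3.58.1 on logged FPKM (0.1 or 1 added first), and leaving out each subclone. Python 3.11.15 with scipy 1.17.1 and matplotlib 3.10.9 produced the summaries and plots.

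The genes and lists were chosen with earlier results of these data known. All 9 genes are named. Of the lists, called genes are named, or the 2 most abundant where none was called. Also named, after their values were seen, were genes overlapping or next to a member and untested or zero-count genes given as counts. The same holds for genes newly called by DESeq2, *Klf4*, *Il2rg*, *Stat5b* and markers. For each called member the 3 genes nearest in profile are named (0.5 CPM added before logs). Some genes of the lists are not reported here. No other sample columns were used, and no sample was left out of the main comparison.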

Additional observations from a re-analysis of the deposited data

How the results depend on the processing

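The count of called genes among the 9 was 3, and it was 5 under DESeq2 and 5 with an unadjusted p under 0.05 and a fold change of at least 2. Over all genes that last rule called 4040, against 2072. Without 1 subclone in turn, the count among the 9 ran from 1 to 6, that over all genes from 457 (without #3) to 5572 (without #2), and that over the pathway lists from 2 to 20, against 5. DESeq2 called 10 in the lists, and over all genes 3000, which was 21.3% of those to which it gave an adjusted p. *Lifr* reversed to -0.17 after correction for gene length, and without 1 subclone in turn it ran from -0.042 (without #3) to 0.36, and *Socs2* from -0.12 (without #3) to 0.33. The length correction shifted the median log2 fold change of all genes by -0.14; *Jak3* and *Jak2* were then at -1.50 and -2.45 and *Il6st* at 2.02. *Jak3* lost its call with library totals alone (edgeR adjusted p = 0.0530), and under limma on logged FPKM (0.0707 with 1 added first, 0.0677 with 0.1). Without #3 *Pim1* also lost its call (edgeR adjusted p = 0.0545). *Thop1* stayed called throughout, and its log2 fold change without 1 subclone was -1.87 to -1.51. As shares of raw counts, *Jak3* was at 44.9% in the control and 23.6% in the subclones, *Tyk2* at 22.0% and 51.4%, and *Jak1* at 18.4% in the subclones. For the 14 genes followed through 12 alternatives, 149 of 168 values kept direction and side of the threshold. Calls lost without #3, among them *Il6st*, *Jak3*, *Socs1* and *Socs7*, were lost where far fewer of all genes were called. Calls gained without #2, such as *Jak2* and *Tyk2*, were gained where far more of all genes were called. No cause of these shifts was tested. With 2 subclones left, the lone control is assumed to vary as they do. No paired analysis was possible because the control has 1 library and shares no replicate number with the subclones in the labels.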
